A study of Mus musculus with 12 samples.

Results

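Dermal papilla (DP) cells of dMF1/2 mice at postnatal day 16 (P16) were compared with DP cells of control mice at P14, to ask which genes depart from a simple delay of the papilla by the days between them. If the mutant papilla only ran late by that interval, the P16 dMF1/2 libraries would equal the P14 control libraries. The comparison uses 6 of the 12 libraries analysed, namely the 3 P16 dMF1/2 and the 3 P14 control libraries. They were chosen by their labels alone. The dMF1/2 mice carried Cor-cre/+; Fgfr1Flox/Flox; Fgfr2Flox/Flox, so that both receptors of fibroblast growth factors (FGF) were removed by a cre recombinase expressed from Corin, a gene of the postnatal DP. The controls are labelled wild type, and the study's methods list Cor-cre/+; Fgfr1Flox/+; Fgfr2Flox/+ mice or floxed mice without cre as controls. The first kind loses 1 copy of each receptor gene in the DP, and which kind was sequenced is not given in the sources used here. Mice of both genotypes carried a YFP reporter that cre switches on, and YFP-positive cells were sorted by FACS from dissociated skin, so a control without cre would give no such cells. No mouse received a treatment, all samples are labelled as anagen, and the strain background and the sex are not given in the sources used here. The remaining libraries, 3 of P14 dMF1/2 and 3 of P16 control mice, share no library with the comparison and were used to sort its genes.

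The DP is the cluster of mesenchymal cells at the base of the hair follicle that signals to the epithelial matrix cells around it. During anagen, the growth phase, these signals keep the matrix proliferating and the hair shaft growing, and their change precedes catagen, the phase of regression. FGF binding to its receptors activates the RAS-ERK cascade, which induces ETS factors of the Etv group and, as negative feedback, the Sprouty and Spred inhibitors and the Dusp phosphatases. R-spondins amplify Wnt signalling by binding LGR receptors and removing the ubiquitin ligases ZNRF3 and RNF43, while Dkk2 and Notum are secreted inhibitors of the Wnt pathway.

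The P14 control libraries held 19302358 to 25824232 reads over protein-coding genes and the P16 dMF1/2 libraries 21161124 to 27122936. Values are given as rescaled reads, that is, whole reads recovered from the deposited tables of both days and divided by one size factor per library. P14 control replicate 1 stood apart, since Col1a1 took 7.06% of its reads against 13.1% to 17.0% in the other 5 libraries, and 9.15% in P14 dMF1/2 replicate 1. P14 control replicate 2 held 2 reads of the Y-linked gene Ddx3y, where the other 5 libraries held 1324 to 1967. Among the libraries used below to sort genes and to place the papilla, P14 dMF1/2 replicate 2 held 2 such reads and P16 control replicate 3 none, against 1346 to 2104 in the other 4. The part of this in any difference was not tested. The targeted gene Fgfr1 (ENSMUSG00000031565, chromosome 8, 25513654 to 25575714, GRCm38) had 10108, 7855 and 9046 rescaled reads in P14 control and 7837, 6121 and 7410.4 in P16 dMF1/2, and Fgfr2 had 5003, 4547 and 4992 against 5429.7, 4044 and 5470.3. The groups of Fgfr1 do not overlap but nearly touch, and neither gene passed the test (log2 differences of -0.34 and 0.03, limma's adjusted p = 0.172 and 0.921). Reads were counted over the whole gene, which includes parts that recombination leaves in place, so these counts do not measure the loss of the receptors, and controls that carry cre may lack 1 copy.

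Of 13415 genes tested, 1471 (11.0%) differed between P16 dMF1/2 and P14 control at limma's adjusted p under 0.05, and these are referred to as called. P16 dMF1/2 was higher in 552 of them (4.11%) and lower in 919 (6.85%). In the tables' own scaling, where each day was normalized apart, the split turned to 866 higher and 727 lower, while the median of all genes was 0.06 against 0.02 on the log2 scale. For 10477 genes (78.1%) the 95% interval of the difference lay within 2-fold in either direction. The count of called genes rested on single libraries. Leaving out P14 control replicate 1 gave 714 and leaving out replicate 3 of that group 959. With P16 dMF1/2 replicate 1 left out it was 654, and with replicate 3 left out 714. In a fit of the 6 libraries compared alone it was 602, with 171 higher and 431 lower. Only 9 genes differed by more than 2-fold in a test against that limit, and P16 dMF1/2 was lower in all 9. By the study's description each library is from 1 mouse, so p-values measure the spread between mice together with that of the libraries. Days are in separate tables, and the day, the table and any batch that goes with it cannot be told apart.

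The comparison of P14 dMF1/2 with P16 control was used to sort the called genes, because it crosses genotype and day the other way round and is a difference between the other 6 libraries. In it 3119 genes (23.3%) were called, 1651 higher in P14 dMF1/2 (12.3%) and 1468 lower (10.9%). A gene that goes with genotype has the same sign in both comparisons, and a gene that goes with the day has opposite signs. Under a delay longer than the days compared, a gene that changes with time in controls could also have the same sign. Such a delay was not tested. The same sign was found for 113 genes, 7.68% of the 1471 and 3.62% of the 3119, with 55 higher and 58 lower in dMF1/2. Opposite signs were found for 621 genes, 42.2% of the first list and 19.9% of the second, with 161 higher and 460 lower in P16 dMF1/2. The other 737 genes were called in the P16 dMF1/2 against P14 control comparison alone. Genes with opposite signs outnumbered those with the same sign under each of the 26 other settings of the fit, although the same-sign count was 59, 54, 58 and 51 without P14 control replicate 1, P14 control replicate 3, P16 dMF1/2 replicate 2 and P16 dMF1/2 replicate 3, and 72 and 71 without P14 dMF1/2 replicate 3 and P16 control replicate 3. The opposite-sign count was 385 without P14 control replicate 1, 380 without P14 dMF1/2 replicate 3, 375 without P16 control replicate 1, 401 without P16 control replicate 3, and 333 and 380 without P16 dMF1/2 replicates 1 and 3. Same-numbered libraries of a day deviated together from their group means, with correlations across genes of 0.288 to 0.573 at P14 and 0.266 to 0.319 at P16. The part of these shared deviations in the opposite signs was not tested.

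Where the P16 dMF1/2 papilla lies was read from the 3119 genes called between P14 dMF1/2 and P16 control, whose difference is taken between the other 6 libraries. The choice is not independent of the libraries placed, because all 12 share the size factors and the estimate of the spread, and same-numbered libraries of a day deviate together, as given above. The part of the shared deviations in the positions was not tested. With the genes called in a fit of the P14 dMF1/2 and P16 control libraries alone, a setting added after the data were seen, the medians given next for the groups were -0.24 on 1276 higher and 0.14 on 1190 lower genes. On the 1651 genes that were higher in P14 dMF1/2 the P16 dMF1/2 libraries lay below P14 control. The median log2 difference from the P14 control mean was -0.28, -0.20 and -0.17 in the 3 P16 dMF1/2 libraries, against 0.08, 0.00 and -0.08 in the P14 control libraries. The P16 control libraries lay farther down, at -0.57, -0.47 and -0.50, and the P14 dMF1/2 libraries at 0.20, 0.07 and 0.11. On the 1468 genes that were lower in P14 dMF1/2 the order was turned round, with 0.20, 0.09 and 0.14 in P16 dMF1/2 and -0.06, -0.03 and 0.12 in P14 control, of which the highest overlapped the P16 dMF1/2 range. The group medians of the difference of P16 dMF1/2 from P14 control were -0.22 for the first set and 0.15 for the second, against 0.02 over all genes tested. In the first set 460 genes (27.9%) were called lower in P16 dMF1/2 and 55 (3.33%) higher. The second set held 161 called higher (11.0%) and 58 called lower (3.95%). By the medians of the groups P16 dMF1/2 stood between P14 control and P16 control. Without P14 control replicate 3 the medians were -0.27 and 0.22, and without P14 control replicate 1 they were -0.16 and 0.10.

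**Figure D1:**
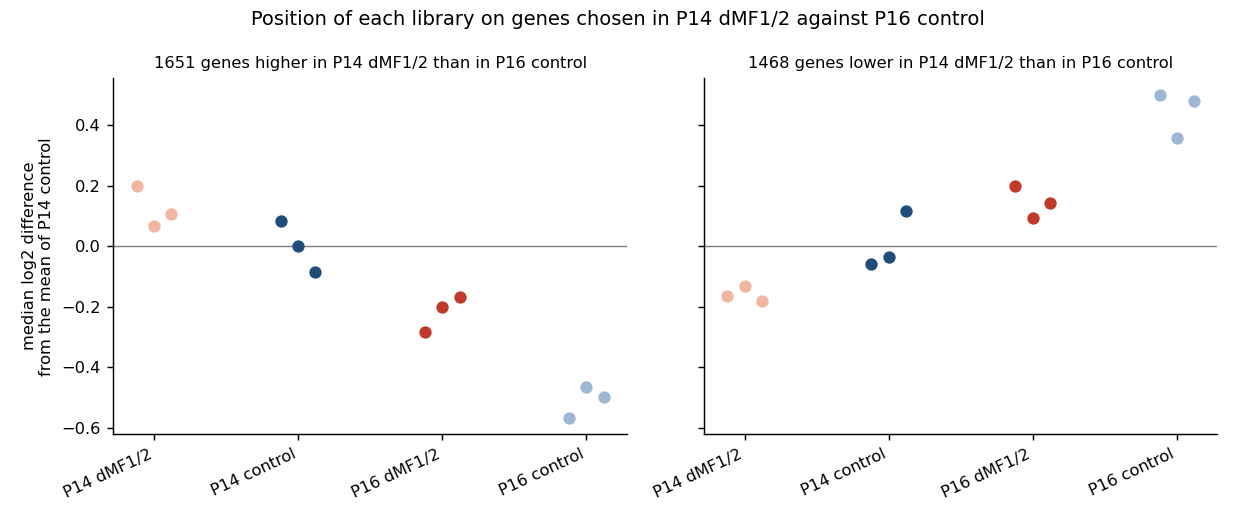
Median log2 difference of each library (points, 3 per group) from the mean of the P14 control libraries, over the 1651 genes higher (left) and the 1468 genes lower (right) in P14 dMF1/2 than in P16 control. P16 dMF1/2 libraries lie at -0.28 to -0.17 on the left and 0.09 to 0.20 on the right, where they overlap the highest P14 control library at 0.12 and lie below each P16 control library. The genes were chosen with the P14 dMF1/2 and P16 control libraries.

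The position changed with the way genes were chosen. Among genes that differed by more than 2-fold between P14 dMF1/2 and P16 control the medians were -0.040 for the 451 higher and -0.029 for the 398 lower genes. Of the 451 genes, 26 (5.76%) were called higher and 84 (18.6%) lower in P16 dMF1/2. The 398 genes held 8 called higher (2.01%) and 30 called lower (7.54%), where 4.11% and 6.85% of all genes were. These genes went both ways, with quartiles of -0.66 and 0.48 for the higher genes (range -4.83 in mt-Nd6 to 4.45 in Cacng5) and of -0.52 and 0.36 for the lower ones, so these medians give no position. A choice made within the P16 table gave the reverse. The 150 genes per direction with the smallest p between the genotypes at P16 were taken from a fit without 1 replicate number, and the libraries left out were then measured. On the genes higher in dMF1/2 the left-out P16 dMF1/2 libraries were 0.23, 0.41 and 0.74 above the P14 control mean, and the left-out P16 control libraries lay at -1.19, -0.62 and -0.75. On the genes lower in dMF1/2 they lay at -0.37, -0.57 and -0.52, against 0.77, 0.41 and 0.60 in P16 control. Single P14 control libraries reached from -0.29 to 0.19 on the first genes and from -0.30 to 0.26 on the second, and no P16 dMF1/2 library fell inside these ranges. The P14 control libraries make up the mean they were measured from, which narrows their range. The genes were also chosen for a difference between the genotypes at P16, so these ranges do not test a position. By construction, the first choice mixes genes of the day with genes of the genotype, and the second takes genes of the genotype at P16 alone.

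None of the R-spondins, whose transcript levels the study followed through anagen, passed the test between P16 dMF1/2 and P14 control. Rspo2 had 4063, 2485 and 2071 rescaled reads in P14 control and 3002, 2664 and 4091 in P16 dMF1/2, a log2 difference of 0.22 (standard error 0.38, limma's adjusted p = 0.75). Rspo3 had 8291, 5625 and 3809 against 6341, 7341 and 9645, a log2 difference of 0.45 (standard error 0.41, limma's adjusted p = 0.516). For both genes the groups overlap, whereas the P16 control mean was 429 for Rspo2 and 909 for Rspo3. Rspo1 and Rspo4 had log2 differences of -0.15 and -0.64 (limma's adjusted p = 0.689 and 0.347). The 95% intervals were -0.62 to 0.32 for Rspo1, -0.62 to 1.05 for Rspo2, -0.46 to 1.35 for Rspo3 and -1.56 to 0.28 for Rspo4, so for the last 3 a difference of over 2-fold in 1 direction lies within the interval.

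No secreted antagonist passed the test, and Dkk2 came closest among the genes the study names. It had 10714, 8319 and 14053 rescaled reads in P14 control and 8177, 4926 and 7032 in P16 dMF1/2, and the groups do not overlap. Its log2 difference was -0.71 (standard error 0.21, limma's adjusted p = 0.0503), just above the threshold of 0.05. It was called in 5 of the 14 other settings of the fit, with DESeq2 (adjusted p = 0.0118), edgeR (0.0462), TMM scaling (0.0459), upper-quartile scaling (0.0448) and at least 10 reads in every library (0.0475). Of the 12 fits that leave out 1 library it was called in 1, that without P14 control replicate 2 (0.0272). Notum, which removes the lipid that Wnt proteins need for activity, had 7431, 3053 and 7368 against 5032, 1640.5 and 3641, with overlapping groups, a log2 difference of -0.82 (standard error 0.43, limma's adjusted p = 0.24). It was called in 1 of the 14 other settings and in none of the 12 fits that leave out 1 library. None of the 15 secreted antagonists tested was called, and their median was -0.28, with a range of -1.31 to 0.83.

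Among receptors and ligands of the Wnt pathway some genes did depart from the P14 control level. Lgr4, a receptor of R-spondins, had 2558, 2471 and 2115 rescaled reads in P14 control and 3487, 3741 and 5446 in P16 dMF1/2, and each P16 dMF1/2 library lay above each P14 control library. It rose by 0.80 on the log2 scale (standard error 0.17, limma's adjusted p = 0.0159, 0.052 without P14 control replicate 3). Wnt5a, a ligand of the noncanonical branch, had 3119, 4169 and 3744 against 5335, 6121 and 6177 and rose by 0.68 (adjusted p = 0.00894). Both genes were also higher in P14 dMF1/2 than in P16 control, by 1.11 and 0.85 (adjusted p = 0.00158 and 0.00151). Wnt10b, a canonical ligand, fell from 159, 100.04 and 54.4 to 20.1, 25.7 and 11.4, a log2 difference of -2.33 (adjusted p = 0.0163, 0.0624 without P16 dMF1/2 replicate 3 and 0.0627 without P14 control replicate 1). Tcf7l1, a DNA-binding factor of the pathway that mostly represses, fell by 0.77 (adjusted p = 0.00103) and had the opposite sign in P14 dMF1/2 against P16 control (0.72, adjusted p = 0.000987).

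In the Wnt lists the called members were single genes, and 4.11% of all genes were called higher and 6.85% lower. Of the 8 R-spondins and R-spondin receptors tested 1 was higher and none was lower (median 0.19), and of 12 Wnt ligands 1 was higher and 1 lower (median -0.08). The 16 Frizzled and Wnt co-receptor genes held 1 higher and 1 lower, Fzd3 with 0.34 and Fzd1 with -0.44 (adjusted p = 0.0498 and 0.0464), the first lost without P14 control replicates 1 and 3, P16 dMF1/2 replicates 1, 2 and 3, P14 dMF1/2 replicate 3 or P16 control replicates 1, 2 and 3 and the second lost without P14 control replicates 1, 2 and 3, P16 dMF1/2 replicates 1, 2 and 3, P14 dMF1/2 replicates 1, 2 and 3 or P16 control replicate 3. The 27 genes of the beta-catenin machinery and Wnt feedback held the called genes Lgr4 and Tcf7l1, with a median of -0.05. Ctnnb1, which encodes beta-catenin, had 11929, 10402 and 12626 rescaled reads in P14 control and 12148, 10042 and 10538 in P16 dMF1/2 (-0.10, adjusted p = 0.632, 95% interval -0.35 to 0.16). Cdh3, which encodes P-cadherin, had 50, 23.9 and 41.5 against 10.6, 22 and 17.7, and although the groups do not overlap the adjusted p was 0.0875. Znrf3 and Kremen1 had differences of 0.25 and 0.08 (adjusted p = 0.151 and 0.648). Rnf43 and Fgf5 were not among the genes tested.

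**Figure D2:**
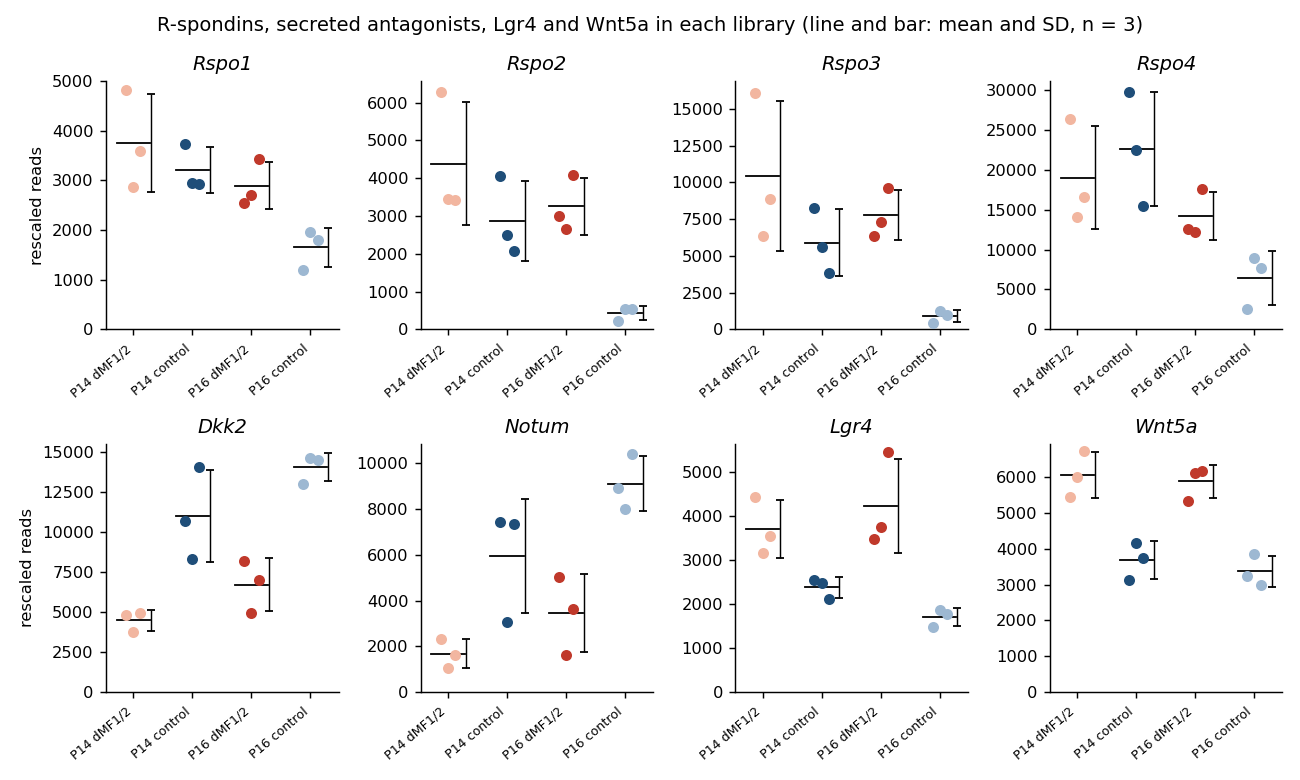
Rescaled reads of Rspo1 to Rspo4, Dkk2, Notum, Lgr4 and Wnt5a in each library (points), with the mean (line) and SD (bar) of the 3 libraries of a group, on linear axes from 0. P16 dMF1/2 overlaps P14 control for each R-spondin and for Notum, while Lgr4 and Wnt5a lie higher and Dkk2 lower in all 3 P16 dMF1/2 libraries.

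Several targets of FGF signalling fell below the P14 control level. Of 21 FGF-ERK feedback and target genes tested, 9 were called lower in P16 dMF1/2 and none higher, where 6.85% of all genes were called lower, and the median was -0.52 against 0.02 over all genes. Etv5, an ETS factor induced by ERK, had 1305, 943 and 953 rescaled reads in P14 control and 541, 417 and 414 in P16 dMF1/2. The highest P16 dMF1/2 library lay far below the lowest P14 control library (-1.21, standard error 0.15, limma's adjusted p = 0.000743). Etv4 of the same group had 167, 91.3 and 209 against 41.2, 40.4 and 42.6 (-1.81, adjusted p = 0.0022). Etv1, the remaining member, had 1067, 710.1 and 1086 against 395, 278 and 364 (-1.45, adjusted p = 0.00231). All 3 kept their calls without any 1 of the 12 libraries. They were also lower in P14 dMF1/2 than in P16 control, with differences of -1.04, -2.08 and -1.49, and so have the same sign in both comparisons.

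The feedback inhibitors followed with smaller or more variable falls. Spred2, which inhibits RAF activation, fell from 2056, 1556 and 1731 to 1261, 1051 and 1163 (-0.61, adjusted p = 0.0186, lost without P14 control replicate 1 or P16 dMF1/2 replicates 2 and 3). The other 5 called members, named here after their values were seen, were the Sprouty genes Spry1, Spry2 and Spry4 (-0.80, -0.52 and -1.45) and the phosphatases Dusp4 and Dusp6 (-1.38 and -0.64), with limma's adjusted p of 0.0474, 0.0467, 0.0374, 0.0366 and 0.0205. Their calls held in 3, 2, 5, 7 and 9 of the 12 fits that leave out 1 library, in that order. Dusp6, which inactivates ERK, had 628, 487 and 580.1 rescaled reads against 285, 414 and 398 and was also lower in P14 dMF1/2 than in P16 control (-0.93, adjusted p = 0.00177). Spry1, Spry2, Spry4 and Dusp4 were not called in that comparison (0.42, 0.14, -0.20 and 0.21). The count of 9 fell to 3 without P14 control replicate 1, to 5 and 6 without P14 control replicates 2 and 3, and to 4 without any 1 of the P16 dMF1/2 libraries. In 11 of the 21 genes the groups did not overlap with P16 dMF1/2 lower, where 16.4% of all genes did so. The members that act as immediate early genes, Fos and Egr1, had differences of 0.23 and -0.22 (adjusted p = 0.509 and 0.47). None of the 14 FGF receptors and co-receptors and none of the 12 FGF ligands tested was called, with medians of -0.12 and -0.07. Fgfr4, a receptor the mutation leaves in place, had 263, 1392 and 1614 against 1764, 1764 and 1289.9 (0.92, adjusted p = 0.354), the low value being that of P14 control replicate 1.

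**Figure D3:**
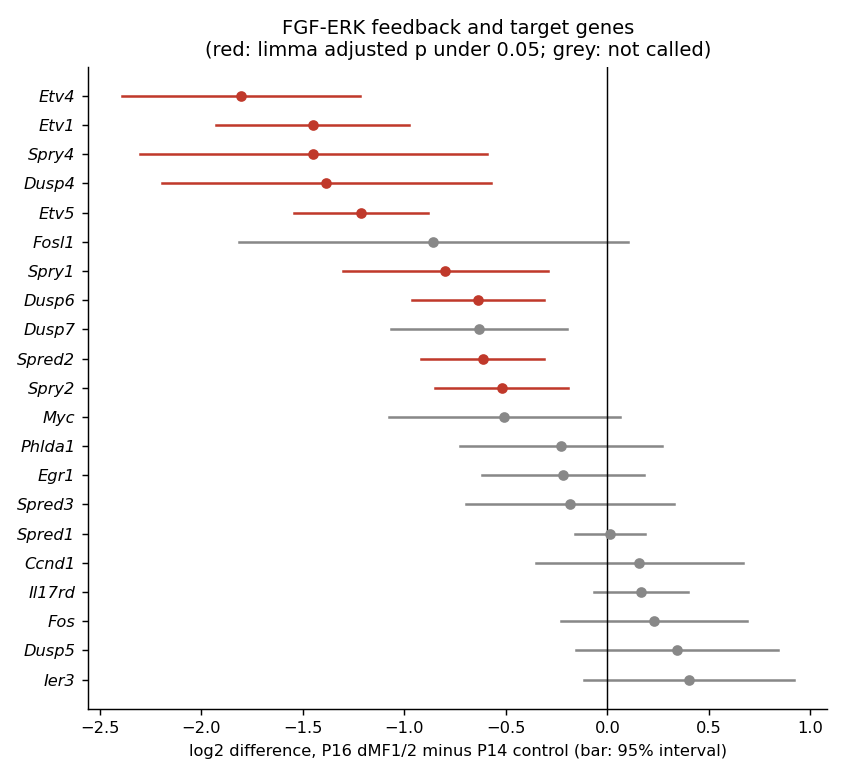
Log2 difference of P16 dMF1/2 from P14 control (point) with its 95% interval (bar) for the 21 FGF-ERK feedback and target genes tested. The 9 genes in red passed limma's adjusted p under 0.05, all below 0, from -1.81 for Etv4 to -0.52 for Spry2.

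The promoters of genes that fell together are shown for 2 of these genes, from 250 bases before to 50 after the start in RefSeq on GRCm38.p6, 5′ to 3′ on the minus strand. The capitals mark CCGGAA, the core that ETS factors such as the Etv proteins bind, searched on both strands. Etv5 is at chr16:22439521-22439820 and Spry2 at chr14:105896770-105897069.
Etv5: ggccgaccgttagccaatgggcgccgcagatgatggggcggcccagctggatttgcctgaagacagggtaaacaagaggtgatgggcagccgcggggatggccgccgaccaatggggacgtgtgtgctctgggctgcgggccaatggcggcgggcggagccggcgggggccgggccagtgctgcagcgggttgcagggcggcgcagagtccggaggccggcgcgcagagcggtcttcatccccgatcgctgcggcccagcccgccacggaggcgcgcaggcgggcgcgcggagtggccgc
Spry2: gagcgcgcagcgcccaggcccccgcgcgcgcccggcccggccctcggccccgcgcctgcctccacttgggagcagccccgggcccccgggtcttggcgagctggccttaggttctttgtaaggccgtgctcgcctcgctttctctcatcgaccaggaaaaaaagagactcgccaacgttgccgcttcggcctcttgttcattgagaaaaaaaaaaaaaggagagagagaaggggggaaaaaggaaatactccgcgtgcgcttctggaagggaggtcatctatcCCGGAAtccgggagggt
Of the 9 called genes 6 had an entry in the promoter table, and 1 of these 6, Spry2, held CCGGAA, in capitals above, against 14.9% of all 32851 promoter windows. The AP-1 motif TGANTCA, with N for any base, was in none of the 6 and in 7.81% of all windows. A match is a description of these letters and not a site of binding.

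Outside the FGF list, genes with the same sign in both comparisons included large departures from a delay by the days between the groups. Npy4r, a receptor of pancreatic polypeptide, had 81.1, 165 and 41.5 rescaled reads in P14 control and 436, 1223 and 1031 in P16 dMF1/2, a log2 difference of 3.30 (standard error 0.50, limma's adjusted p = 0.0024). Pdyn, the precursor of dynorphin peptides, had 54.7, 19.6 and 22.7 against 333, 331 and 541 (3.70, adjusted p = 0.00578). In both genes the lowest P16 dMF1/2 library lay above the highest P14 control library by more than the whole P14 control range. Grin2b, a subunit of the NMDA glutamate receptor, had 115, 60.9 and 55.3 against 195, 196 and 312 (1.63, adjusted p = 0.0077). Against P16 control, P14 dMF1/2 was higher for Npy4r, Pdyn and Grin2b too, by 7.34, 3.05 and 2.73. The P16 control means were 7.46, 42.1 and 35.4 rescaled reads, so for Npy4r and Grin2b the P14 control level lay between P16 control and dMF1/2.

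Further genes of this kind were less even between libraries. Cacng5, a regulatory subunit of calcium channels and AMPA receptors, had 9.44, 15.2 and 1.98 rescaled reads in P14 control and 95.1, 202 and 267 in P16 dMF1/2 (4.45, adjusted p = 0.0317, lost without P14 control replicates 1 and 3 or P16 dMF1/2 replicates 1, 2 and 3). Aldh1a7, an aldehyde dehydrogenase, had 28.3, 19.6 and 7.91 against 54.9, 96.3 and 110.1 (2.27, adjusted p = 0.0383, lost without P14 control replicates 2 and 3 or P16 dMF1/2 replicates 1, 2 and 3). Spock1, a matrix proteoglycan, had 181, 287 and 171 against 589, 409 and 675 (1.39, adjusted p = 0.00416). In all 3 genes each P16 dMF1/2 library lay above each P14 control library, and Spock1 kept its call without any 1 of the 12 libraries. Ccdc3, a secreted protein, rose by 1.05 (adjusted p = 0.00899) and kept its call in the same way. Hey2, a target of Notch, rose by 1.03 (adjusted p = 0.0492), but the call was lost without P14 control replicates 1, 2 and 3, P16 dMF1/2 replicates 2 and 3, P14 dMF1/2 replicates 1, 2 and 3 or P16 control replicate 2.

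The genes that stayed below the P14 control level in dMF1/2 were led by transporters and a pigment signal. Slc26a7, an anion transporter, had 1663, 2475 and 2576 rescaled reads in P14 control and 421, 147 and 295 in P16 dMF1/2, a fall by 3.06 on the log2 scale (standard error 0.57, limma's adjusted p = 0.00749). The gene a, which encodes the agouti signal that switches melanocytes to yellow pigment, had 398, 100.04 and 557 against 101, 11.9 and 30.1 (-3.03, adjusted p = 0.022, lost without P14 control replicates 1 and 3 or P16 dMF1/2 replicates 2 and 3), and the ranges overlap only at the lowest P14 control and the highest P16 dMF1/2 library. Slc30a2, a zinc exporter, had 26.4, 4.35 and 53.4 against 2.11, 1.83 and 1.04, that is, 86 reads in all against 5, a ratio of 17.2 with a 95% counting interval of 7.11 to 54.5 that covers counting error only. Its adjusted p was 0.0283, and the call was lost without P14 control replicates 1 and 3 or P16 dMF1/2 replicates 1, 2 and 3.

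Bmp3, a ligand of the BMP family that opposes other BMPs, had 11518, 9584 and 10609 rescaled reads in P14 control and 4004, 2796 and 3798 in P16 dMF1/2 (-1.59, adjusted p = 0.00403). Dsc2, a desmosomal cadherin, had 93.4, 58.7 and 88.9 against 7.39, 14.7 and 13.5 (-2.68, adjusted p = 0.00179). Kif21b, a kinesin motor, had 500.1, 344 and 366 against 131, 71.6 and 110.1 (-1.97, adjusted p = 0.00123). For these 3 genes the P16 dMF1/2 values lay far under every P14 control value, and the calls held without any 1 of the 12 libraries. Plcg2, a phospholipase C, also kept its call throughout (-2.05, adjusted p = 0.0113). The genes Tnfrsf21, a death receptor, and Slc12a2, a sodium, potassium and chloride cotransporter, fell by 0.90 and 0.51 (adjusted p = 0.0303 and 0.016), the first lost without P14 control replicates 1 and 3 or P16 dMF1/2 replicates 2 and 3 and the second lost without P14 control replicate 3 or P16 dMF1/2 replicates 1 and 2.

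**Figure D4:**
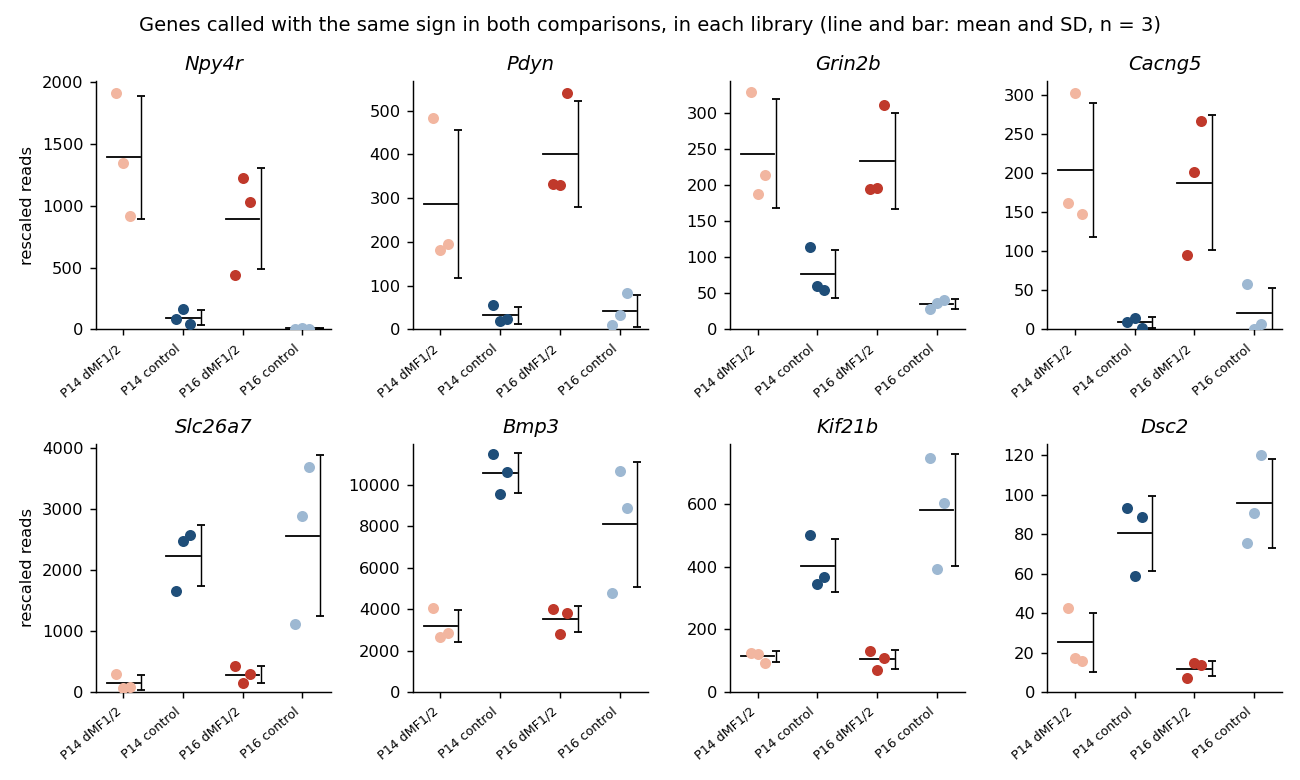
Rescaled reads of 8 genes called with the same sign in P16 dMF1/2 against P14 control and in P14 dMF1/2 against P16 control, in each library (points), with the mean (line) and SD (bar) of the 3 libraries of a group, on linear axes from 0. Npy4r, Pdyn, Grin2b and Cacng5 lie higher and Slc26a7, Bmp3, Kif21b and Dsc2 lower in all 3 P16 dMF1/2 libraries than in any P14 control library.

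Several genes that separate the genotypes steeply on 1 day did not pass the test here, and in several of them the P14 control libraries spread widely. Spp1, which encodes the matrix protein osteopontin, had 119, 15.2 and 558 rescaled reads in P14 control and 43.3, 12.8 and 27 in P16 dMF1/2 (-2.00, adjusted p = 0.222). Trpc4, a calcium-permeable channel, had 67, 13 and 279.7 against 47.5, 6.42 and 10.4 (-2.01, adjusted p = 0.194), and Cemip, which breaks down hyaluronan, 174, 44.6 and 637 against 148, 20.2 and 44.7 (-1.71, adjusted p = 0.221). In all 3 genes P14 control replicate 2 was lowest of its group and replicate 3 highest. Without replicate 2 the adjusted p was 0.0224 for Spp1 and 0.0434 for Trpc4. Npffr2, a receptor of RFamide peptides, had 229, 114 and 153 against 711, 639 and 653, without overlap. Its difference of 2.06 had an adjusted p of 0.0579 in the fit of all 12 libraries, and in a fit of the 6 libraries alone it was 0.00645. Fgd3, an exchange factor of small GTPases, had -2.55 (adjusted p = 0.0545), Gpr165 1.23 (0.304), Pax1, a transcription factor, 0.55 (0.621), and Slc5a3, the inositol transporter, -0.38 (0.186).

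Mitochondrial genes were among the steepest falls, and these went with the day. Transcript levels of mt-Nd6, a subunit of complex I, were 1883, 2327 and 2718 rescaled reads in P14 control and 97.2, 73.4 and 70.6 in P16 dMF1/2 (-4.83, standard error 0.31, limma's adjusted p = 9e-06). They were 2499 ± 232 in P14 dMF1/2 and 111 ± 59.9 in P16 control (mean ± SD, n = 3), so both genotypes were high at P14 and low at P16. The genes mt-Atp8, mt-Nd4l and mt-Nd2 fell by 3.62, 3.07 and 3.01. Of the 13 mitochondrially encoded genes, a group picked after its values were seen, 11 were called lower, while mt-Co1 and mt-Co3 had -0.28 and 0.05 (adjusted p = 0.355 and 0.869). Among nuclear genes of the ATP synthase and respiratory chain the median difference was -0.30, against -1.39 in the mitochondrially encoded genes. Atp5k, a subunit of the ATP synthase and the one such gene that the naming rule picked, had 293, 269 and 306 against 35.9, 52.3 and 24.9 (-2.97, adjusted p = 3.24e-05), with 297 ± 49 in P14 dMF1/2 and 37.7 ± 2.1 in P16 control.

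Further families held calls mostly in the same direction, where 6.85% of all genes were called lower and 4.11% higher and the median of all genes was 0.02. Of 84 nuclear genes of the respiratory chain and ATP synthase 35 were called lower and none higher (median -0.30), and 26 were called higher and none lower in P14 dMF1/2 against P16 control, where 12.3% of all genes were higher. Of 42 histone genes 16 were lower and none higher (median -0.87), of 78 cytosolic ribosomal protein genes 27 lower and 1 higher (median -0.21), and of 39 proteasome subunits 15 lower and none higher (median -0.24). In P14 dMF1/2 against P16 control the histone genes held 8 called higher and none lower. The ribosomal protein genes held 17 higher and 8 lower there, and the proteasome subunits 4 higher and 1 lower. Of all genes 12.3% were higher and 10.9% lower in that comparison. These families too were picked after their values were seen. Among named genes with opposite signs, C1s2, a complement protease, fell by 2.24 and Pin4, a prolyl isomerase, by 2.42 (adjusted p = 0.0021 and 3.24e-05). The rises with opposite signs that had the largest change in both comparisons, among genes called in both, were smaller. They were Trim69 at 1.34, Nup210l at 1.18, Slc6a18 at 1.16, Gm11032 at 1.01, Ptgfr, the receptor of prostaglandin F2alpha, at 0.99 and Lrrtm2, a synaptic adhesion protein, at 0.93. Of these 6 rises only that of Gm11032 kept its call without any 1 of the 12 libraries.

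The length of the gene went with the direction of change across the days. The median exonic length was 7893 bases in the genes called higher in P16 dMF1/2 and 2762 in those called lower, against 4590 over all genes. By eighths of the genes tested, from the shortest to the longest, the median log2 difference of P16 dMF1/2 from P14 control went from -0.21 to 0.18, and the share called lower from 18.0% to 1.67%. P16 control against P14 control went from -0.16 to 0.17 and P16 dMF1/2 against P14 dMF1/2 from -0.17 to 0.14. Within a day the genotypes differed by -0.03 to 0.04 at P14 and by -0.06 to 0.01 at P16. The 54 genes of the same-sign, higher set with a known length had a median of 5805 bases and the 58 lower ones 4106, nearer to that of all genes. The opposite-sign sets lay farther off, at 7939 bases for the 161 higher and 2520 for the 460 lower genes. The positions and sign counts given above were taken with this trend in place. With the length trend removed from each library, a setting added after the data were seen, 1006 genes were called, 327 higher and 679 lower. Among the genes named above, Spry1, Spry2, Dusp4, Hey2, Fzd1, Fzd3 and Nup210l then lost their calls, while Etv1, Etv4, Etv5, Lgr4 and Wnt5a kept theirs, and the count of called FGF-ERK genes was 6. The families of the paragraph above held fewer lower calls in this setting, with 23 lower and 1 higher of the 84 respiratory chain and ATP synthase genes (median -0.18), 6 lower and none higher of the 42 histone genes (median -0.51), 17 lower and 8 higher of the 78 cytosolic ribosomal protein genes (median -0.09), and 7 lower and none higher of the 39 proteasome subunits (median -0.17). Of the genes named in the paragraphs that follow, Unc80, Runx3, Mitf, Bmpr1a, Bmpr2, Ltbp1, Tgfbr1, Igfbp6, Igfbp7, Irs1, Col13a1, Pdgfra, Rara, Lifr, Cxcl14, Erap1, Bad, Pmvk, Fdps, Plxna2, Plxna4, Efnb2, Ednra, Rora and Pdgfa lost their calls in this setting too.

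**Figure D5:**
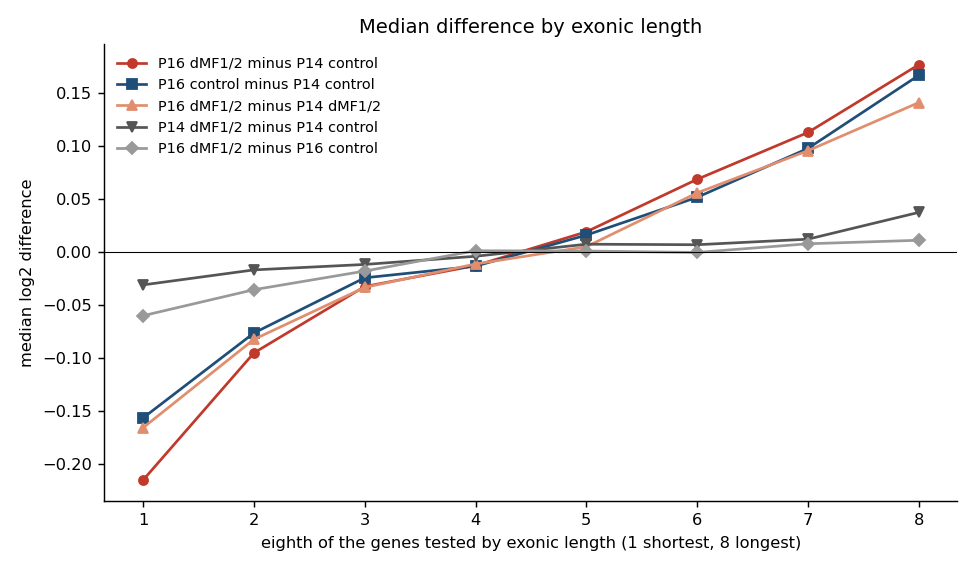
Median log2 difference in each eighth of the genes tested by exonic length, for 5 comparisons (lines). The 3 comparisons across days run from -0.21 to -0.16 in the shortest genes up to 0.14 to 0.18 in the longest, while both comparisons within a day stay between -0.06 and 0.04.

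The largest departures among genes not named so far were of mixed kinds, and only Rbfox1 among them was also called between P14 dMF1/2 and P16 control. Cmtm8, a membrane protein that lowers EGF receptor levels, had 249, 164 and 136 rescaled reads in P14 control and 5.28, 22.9 and 23.9 in P16 dMF1/2 (-3.52, adjusted p = 0.00993). Stmn4, a regulator of microtubules, had a log2 difference of -2.57 (adjusted p = 0.00706). Among the rises Unc80, a part of the sodium leak channel, Kcna2 and Tmem255a had 1.87, 1.60 and 1.64 (adjusted p = 0.0351, 0.0116 and 0.0101), the first lost without P14 control replicates 2 and 3, P16 dMF1/2 replicates 1, 2 and 3 or P14 dMF1/2 replicate 3. Kcna2, a voltage-gated potassium channel, had 8.49, 9.79 and 12.8 against 27.5, 45 and 29.1. Rbfox1, a splicing factor, rose by 1.69 from 4.72, 9.79 and 6.92 to 21.1, 27.5 and 24.9, and had the same sign in P14 dMF1/2 against P16 control (1.21, adjusted p = 0.0236). Serpina3i, a protease inhibitor, rose by 1.61 (adjusted p = 0.0425), with the lowest value in P14 control replicate 1 (lost without P14 control replicates 1 and 2, P16 dMF1/2 replicates 1, 2 and 3, P14 dMF1/2 replicate 2 or P16 control replicates 1, 2 and 3). Hbb-bs, a haemoglobin chain of red blood cells, had 1 read in the P14 control libraries together and 73 in P16 dMF1/2, a ratio of 72.8 with a counting interval of 12.7 to 2914 (adjusted p = 0.0166, lost without P14 control replicate 1 or P16 dMF1/2 replicates 2 and 3).

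Of the 25 genes tested that define the DP, 1 was called higher and 3 lower, where 4.11% and 6.85% of all genes were, and the median was -0.01. Corin had 39219, 30624 and 20793 rescaled reads in P14 control and 14983, 22258 and 26844 in P16 dMF1/2 (-0.49, adjusted p = 0.536), against 7436 in P16 control. Among the called members, Prom1, a membrane protein also known as CD133, rose from 102, 158 and 181 to 388, 352 and 557 (1.56, adjusted p = 0.00276). The others fell. They were Crabp1, which binds retinoic acid (-1.34, 0.0092), the proteoglycan Vcan (-0.69, 0.0223, lost without P14 control replicate 2 or P16 dMF1/2 replicates 1 and 3) and the transcription factor Runx3 (-0.75, 0.0466, lost without P14 control replicates 1 and 3, P16 dMF1/2 replicates 1, 2 and 3, P14 dMF1/2 replicates 2 and 3 or P16 control replicates 1 and 3), each with limma's adjusted p. In P14 dMF1/2 against P16 control 14 of the 25 were called higher and 1 lower, where 12.3% and 10.9% of all genes were, with a median of 1.17.

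Markers of keratinocytes, immune cells and endothelium were low against those of the DP, whereas markers that dermal fibroblasts share with other skin mesenchyme were as high. The 15 fibroblast markers summed to 163482 to 249061 rescaled reads in P14 control and 206481 to 291252 in P16 dMF1/2. Of 21 keratinocyte markers 16 were in both tables, and their summed level was 891 to 1400.2 rescaled reads in P14 control and 970 to 1218 in P16 dMF1/2, against 159698 to 243276 and 168540 to 224203 for the DP markers. Of 15 immune markers 8 were in both tables, with sums of 191 to 343 and 261 to 403, and for 12 endothelial markers 1529.9 to 2182 and 1605 to 1773. The contractile genes of the dermal sheath summed to 34838 to 86372 in P14 control, lowest in replicate 1, and to 33637 to 53909 in P16 dMF1/2, with none of 15 called. The 9 melanocyte markers in both tables summed to 5256 to 6611 and 3759.7 to 5759, the 6 skeletal muscle markers to 954 to 4788 and 1253 to 2415, the 5 adipocyte markers to 6719 to 8530.4 and 5031 to 8251, and the 8 Schwann and neural markers to 675 to 982 and 711 to 908. Single markers that were called were Tek in the endothelial list (-1.04, 0.0266), Tchh in the keratinocyte list (-0.89, 0.0195) and Mitf in the melanocyte list (0.42, 0.0372), and all 3 calls were lost without P16 dMF1/2 replicate 1, among others. These single genes do not stand for their lists. The 12 endothelial markers tested had a median log2 difference of 0.41, with 4 higher and 2 lower in P16 dMF1/2 without overlap between the groups, where 15.5% and 16.4% of all genes did not overlap in these directions. The 13 keratinocyte markers tested had a median of 0.13, with 1 higher and 2 lower without overlap, and the 5 melanocyte markers a median of 0.40. Between P14 dMF1/2 and P16 control, the comparison used to sort genes and to place the P16 dMF1/2 papilla, 7 of the 12 endothelial markers were called lower and 1 higher, where 10.9% and 12.3% of all genes were, with a median of -1.27. In P16 control against P14 control their median was 1.31. The part of endothelial cells in the sorting and the positions was not tested. The part of other cells in any difference was not tested, and in sorted bulk cells fewer cells of a type and less RNA per cell cannot be told apart.

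In the growth factor pathways beside FGF and Wnt, single genes were called, and the counts below stand beside 4.11% of all genes called higher and 6.85% lower. Of the calls named in these and the further lists below, those of Bmp3, Npy4r, Pdyn, Maml2, Col6a6, Col6a5, Col5a3, Sparcl1, Cd248, Crabp1, Il6st, Il16, Bax, Mvd, Plxna4, Hoxa7, Hoxc9 and Dnajb11 held without any 1 of the 12 libraries, and each other call named there was lost without at least 1 of the 6 libraries compared. Several of these calls were also made in P14 dMF1/2 against P16 control. Genes with the opposite sign there included Bmpr1a, Bmpr2, Igfbp6, Col6a6, Col5a3, Adamts16, Cxcl14, Bnip3l, Cdkn1b, Dnajb9 and Dnajb11. Those with the same sign there included Bmp3, Ltbp1, Il16 and Ednra. Of 27 BMP pathway genes 3 were higher and 1 lower. The receptors Bmpr1a and Bmpr2 rose by 0.33 and 0.39 (adjusted p = 0.0351 and 0.0183). Of 20 TGF-beta and activin genes 2 were higher and 1 lower. The ligand Tgfb1 fell by 0.66, while the latent binding protein Ltbp1 and the receptor Tgfbr1 rose by 0.60 and 0.44 (adjusted p = 0.038, 0.0416 and 0.0315). Maml2, a coactivator of Notch, rose by 0.62 (adjusted p = 0.00899) and with Hey2 made up the 2 called of 16 Notch genes. In the IGF pathway the binding proteins Igfbp6 and Igfbp7 fell by 0.70 and 0.68 and the receptor substrate Irs1 rose by 0.54 (adjusted p = 0.0287, 0.0133 and 0.0361). None of 11 Hedgehog genes was called (median 0.13).

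Of 39 collagens 4 were lower in P16 dMF1/2 and none higher (median -0.29), where 6.85% of all genes were lower and 4.11% higher. Col6a6, a chain of collagen VI, had 2483, 2291 and 2270.01 rescaled reads in P14 control and 980.1, 1116 and 926 in P16 dMF1/2 (-1.22, adjusted p = 5.12e-05). Col6a5, Col5a3 and the transmembrane collagen Col13a1 fell by 1.28, 0.85 and 1.46 (adjusted p = 0.00861, 0.00923 and 0.0478). Adam19 and Adamts16 were the 2 called of 39 matrix proteases and inhibitors, lower by 0.59 and 1.56. In the list of CCN and hyaluronan matrix genes, Postn, which encodes periostin, fell by 0.64 and Sparcl1, a matricellular protein, rose by 1.05 (adjusted p = 0.0388 and 0.00423), with 3314, 3374 and 4639 against 6807, 7067 and 9589. None of 39 integrins, laminins and basement membrane genes was called. Of the fibroblast genes, Cd248 fell by 0.69 with the opposite sign in the other comparison (0.70), and the receptor Pdgfra rose by 0.44 (adjusted p = 0.00461 and 0.0494).

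In the list of retinoid and nuclear receptor genes, the retinoic acid binding protein Crabp1 had 10915, 6209.98 and 7699 rescaled reads in P14 control and 3794, 2573 and 3319 in P16 dMF1/2, without overlap (-1.34, standard error 0.26, limma's adjusted p = 0.0092). Its means were 3729 in P14 dMF1/2 and 5061 in P16 control. The nuclear receptor Rara fell by 0.39 (adjusted p = 0.0416, lost without P14 control replicates 1, 2 and 3, P16 dMF1/2 replicates 1, 2 and 3, P14 dMF1/2 replicates 2 and 3 or P16 control replicate 1). In all, 3 of 24 retinoid and nuclear receptor genes were called lower and none higher (median -0.07), where 6.85% and 4.11% of all genes were.

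A pair of receptors of the interleukin 6 family was higher. Il6st, the shared signalling chain gp130, had 11930.3, 11911 and 12819 rescaled reads in P14 control and 17658, 17720.2 and 17076 in P16 dMF1/2 (0.52, adjusted p = 0.00414), and the receptor Lifr rose by 0.60 (adjusted p = 0.0326). Il6st was near 14520.3 in P14 dMF1/2 and 14649 in P16 control, so these groups lay between the groups compared. The cytokine Il16 rose by 0.55 and the chemokine Cxcl14 fell by 1.20 (adjusted p = 0.0102 and 0.0268), which makes 3 higher and 1 lower of 38 chemokine and interleukin genes, where 4.11% and 6.85% of all genes were called. The interferon-inducible Gbp2 and the peptidase Erap1 rose by 0.62 and 0.66 (adjusted p = 0.014 and 0.036), and were the 2 called of 32 genes of class I presentation and interferon response.

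Of the glycolytic enzymes 4 were lower by small amounts. Ldha, Eno1 and Pkm fell by 0.50, 0.48 and 0.39 (limma's adjusted p = 0.0227, 0.0272 and 0.0266), as did Tpi1, named after its value was seen (-0.37), and Bnip3l rose by 0.25 (0.0464). The whole list held 4 lower and 1 higher of 31 tested, where 6.85% and 4.11% of all genes were called, with a median of -0.16. Of 26 genes of the BCL2 family and death receptors 2 were higher and 3 lower, against the same shares of all genes. Bax and Bad, which promote apoptosis, and Tnfrsf21 fell by 0.69, 0.44 and 0.90, and Birc2 and Xiap, which inhibit apoptosis, rose by 0.45 and 0.45 (adjusted p = 0.0013, 0.0289, 0.0303, 0.0132 and 0.0145). Bax kept its call without any 1 of the 12 libraries, and it had the opposite sign in P14 dMF1/2 against P16 control (0.33, adjusted p = 0.0286). In cholesterol synthesis Pmvk, Fdps and Mvd fell by 1.07, 1.03 and 1.01 of 24 genes tested (adjusted p = 0.0214, 0.0494 and 0.00254), beside 6.85% lower among all genes.

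The remaining lists are to be read against the 4.11% of all genes called higher and the 6.85% called lower. Of 60 axon guidance genes 3 were higher and 1 lower, namely the plexins Plxna2 and Plxna4, which rose by 0.35 and 0.75, the ephrin Efnb2 with 0.55 and the netrin receptor Unc5b with -0.95 (adjusted p = 0.0428, 0.0175, 0.0359 and 0.0205). Unc5b was also lower in P14 dMF1/2 than in P16 control (-1.95, adjusted p = 0.0004). Ednra, the endothelin A receptor, rose by 0.48 (adjusted p = 0.0446) and with Npy4r and Pdyn made up the 3 called of 28 neuropeptide and peptide receptor genes. Hoxa7 and Hoxc9 fell by 0.61 and 0.74 (adjusted p = 0.014 and 0.00627) of 25 Hox genes, both with opposite signs in the other comparison (0.43 and 0.95). The clock factor Rora rose by 0.76, the CDK inhibitor Cdkn1b by 0.31, the elongase Elovl5 by 0.26, and the growth factor Pdgfa fell by 0.64 (adjusted p = 0.0287, 0.0326, 0.0488 and 0.0459). The chaperones Dnajb9 and Dnajb11 went opposite ways, 0.61 and -0.52 (adjusted p = 0.0363 and 0.00391). None of 23 proliferation genes and none of 22 genes of the response to tissue dissociation was called (medians -0.23 and 0.17), whereas 10 of the latter were called lower in P14 dMF1/2 than in P16 control, where 10.9% of all genes were. Of the named genes that were called, 46 of 114 kept their call without any 1 of the 12 libraries. With 3 libraries against 3, an exact permutation test of a single gene cannot go below 0.1.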

How the data were processed

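RNA of sorted DP cells was depleted of ribosomal RNA and made into stranded libraries, read on one end. Per the labels and the study's methods, the authors used Trimmomatic for trimming and TopHat2 for mapping to mm10, counted them per gene of GRCm38.p4 with HTSeq and normalized each day with DESeq2. The deposited tables hold, for protein-coding genes, a signal of reads divided by a size factor, beside the authors' own mean, log2 fold changes, a test score and p-values of dMF1/2 against control within a day. None of these last columns was used, and 0 per-sample columns were left out.

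Whole reads were recovered by dividing each column by its smallest value above 0, which gave whole numbers for 100% of values, each within 0.01 of a read. The tables share 14986 genes (15209 at P14, 15334 at P16). Of the 223 and 348 genes in 1 table alone, 2 had a mean of at least 10, and none of these genes was tested. One size factor per library, by median of ratios over all 12, put the reads on a common scale. The 13415 genes with a mean of at least 10 rescaled reads were tested with limma 3.58.1 in R 4.3.3 on log2(rescaled reads + 1), which understates changes of low genes, with a mean-variance trend and all 4 groups sharing the spread. P-values are two-sided and adjusted by Benjamini-Hochberg over all genes tested. Alternatives used DESeq2 1.42.0 and edgeR 4.0.16 on the recovered reads, other scalings, filters and pseudocounts, smaller fits and the removal of each library. The limma, DESeq2 and edgeR fits of P16 dMF1/2 against P14 control were tested on simulated reads, and the other computations were not. Exonic lengths are the union of exons in GENCODE M21 and were missing for 17 genes.

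The genes named are those the study names, the 12 largest called rises and falls without overlap of groups and with at least 1 CPM, up to 4 called members per gene list, the 6 genes per direction with the largest change in both comparisons, for equal and for opposite signs, and genes that lead the genotype comparisons. Members, lists and tests were chosen with earlier results of these data known. The number of libraries and their depth limit the precision, and counting intervals and totals cover counting error only. Some genes that the rule selects are not reported here.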

Additional observations from a re-analysis of the deposited data

How the results depend on the processing

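The count of genes called between P16 dMF1/2 and P14 control ranged from 654 to 1525 when 1 library was left out, and that between P14 dMF1/2 and P16 control from 1917 to 3289. Same-numbered libraries of P14 control and P16 dMF1/2 did not deviate together, with correlations of 0.0782, 0.216 and -0.173 across genes, so the numbers were not taken to pair the samples. With the replicate number as a block in a fit of the 6 libraries, 207 and 1158 genes were called, against 602 in that fit without the block for P16 dMF1/2 against P14 control. Notum was called with the block (0.0458). Tested against a 2-fold change, 9 and 47 genes were called. The other tests, scalings, filters and pseudocounts gave 1351 to 2053 calls, with DESeq2 at the top and edgeR at 1501. The calls split into 37.5% higher and 62.5% lower, and into 54.4% and 45.6% in the scaling as deposited. The cause of these differences was not tested. The reduced fits also hold fewer libraries.

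The median position of the genes higher in P14 dMF1/2 ranged from -0.27 to -0.16 and that of the lower genes from 0.10 to 0.22 when 1 library was left out. They were -0.040 and -0.029 for genes changed over 2-fold, and 0.41 and -0.52, with both directions turned, for genes chosen within P16. Of 3562 values of named genes under the alternatives, 2842 kept their direction and side of the threshold, 691 were no longer called, 23 became called and 6 changed sign. The latter were of Fgfr2 (-0.086 with the length trend removed, and -0.047 to 0.17 over the fits that leave out 1 library) and of mt-Co3 (-0.047 to 0.12 over such fits), none of them called. The 95% interval lay within 2-fold for 5 of 15 secreted Wnt antagonists and for 4 of 8 R-spondins and their receptors, so for the others 3 libraries a group leave a difference of over 2-fold within the interval.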

Other observations

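Of 76 mitochondrial ribosomal protein genes, a family picked after its values were seen, 19 were called lower in P16 dMF1/2 than in P14 control and none higher, with a median of -0.30, where 6.85% of all genes were called lower and 4.11% higher. With the length trend removed 9 of them were called lower and none higher (median -0.19). The remaining gene lists that held a call had 1 of 14 zinc exporters and metallothioneins (Slc30a2, median 0.18), 1 of 32 signals directed at vessels and melanocytes (Pdgfa, median 0.08), 1 of 12 CDK inhibitors and senescence genes (Cdkn1b, median -0.04), 1 of 19 clock genes (Rora, median 0.18), 1 of 18 fatty acid genes (Elovl5, median -0.04) and 2 of 25 chaperones (Dnajb9 and Dnajb11, median -0.10). None of the 5 immune, 5 skeletal muscle, 5 adipocyte and 6 Schwann and neural markers tested was called.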
